A study of Mus musculus with 6 samples.

Results

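Genes of the cell cycle and of DNA replication were followed in chromatin accessibility data (ATAC-seq, which uses the Tn5 transposase to tag DNA that is not packed away) of mouse NIH/3T3 cells, a fibroblast line derived from embryos. The genes were 42 well-known regulators and effectors, taken by name, and a region of open chromatin was counted for a gene when the deposited table gave it that gene's name, at any distance to the transcription start site (TSS). In all, 37 of the 42 genes had at least 1 region, and together they held 58 of the table's 63430 regions. All 6 libraries came from cells with a knock-in of CRISPR-Cas13d, an enzyme that cuts RNA and not DNA. The cells of 3 libraries had been transfected with a guide RNA specific for Actg1, the gene of cytoplasmic gamma-actin, and those of the other 3 with a guide specific for GFP, which served as the control. For each library 25000 cells were used, and Tn5 acted for 30 min at 37 °C. The stated aim of the series was to learn what mRNA degradation contributes to transcriptional adaptation, in which the decay of an mRNA goes along with increased expression of genes similar to it. The assay reads DNA, so it gives no check of how far the Actg1 mRNA was lowered, and the labels do not say whether the replicates were separate cultures or whether the line was 1 clone. The p-values then measure the spread between these samples, which may be technical.

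Cells pass from G1 into S phase when cyclin D and cyclin E kinases inactivate the retinoblastoma protein and release E2F factors, which switch on replication genes. In S phase licensing factors load the Mcm helicase at origins and the fork proteins copy the DNA once. Mitotic genes are switched on later, many through a cell cycle homology region (CHR) and CCAAT boxes in their promoters, and in fibroblasts the whole programme runs only in cells that are dividing.

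Each value is the authors' normalized signal of a region, a read count that had been scaled between libraries and rounded to a whole number. Estimated reads in regions were 5675889 to 9526231 per library. On such estimated reads, GFP guide replicates 1 and 2 could not be distinguished beyond sampling noise (chi-square per region 1.01, p = 0.138, 57988 regions), while the other pairs within a group gave 1.03 to 1.13. They were averaged and counted as 1 sample, so 2 GFP guide samples stood against 3 Actg1 guide samples, and an SD of the GFP guide leaves out the spread between replicates 1 and 2. Of the fibroblast markers checked, 9 of 10 had a region, against 3 of 6 epithelial, 0 of 5 endothelial, 2 of 6 blood and 2 of 5 neural markers. A fold change is the difference of log2(signal + 1), Actg1 guide over GFP guide, and a region was called when its Benjamini-Hochberg adjusted p in the limma fit over all 61327 tested regions was under 0.05.

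Windows at the starts of 4 genes are printed because their regions were called and they carry or lack the letters through which E2F and CHR factors are known to act. They are RefSeq windows of build GRCm38.p6, from 250 bases before to 50 bases after the RefSeq start, on the strand of the gene. Capitals mark a searched motif: for the replication genes Cdt1 (chr8:122567765-122568064, plus strand) and Cdc6 (chr11:98907901-98908200, plus strand) 1 E2F motif each, and for the mitotic genes Top2a (chr11:99024140-99024439, minus strand) and Ccnb1 (chr13:100786437-100786736, minus strand) CCAAT boxes and, in Top2a only, 2 CHR motifs.
Cdt1: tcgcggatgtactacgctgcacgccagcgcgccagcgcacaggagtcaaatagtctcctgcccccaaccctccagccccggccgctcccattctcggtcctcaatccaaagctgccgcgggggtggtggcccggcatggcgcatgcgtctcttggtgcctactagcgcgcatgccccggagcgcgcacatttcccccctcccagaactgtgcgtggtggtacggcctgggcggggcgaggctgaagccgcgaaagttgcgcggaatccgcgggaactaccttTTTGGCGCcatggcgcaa
Cdc6: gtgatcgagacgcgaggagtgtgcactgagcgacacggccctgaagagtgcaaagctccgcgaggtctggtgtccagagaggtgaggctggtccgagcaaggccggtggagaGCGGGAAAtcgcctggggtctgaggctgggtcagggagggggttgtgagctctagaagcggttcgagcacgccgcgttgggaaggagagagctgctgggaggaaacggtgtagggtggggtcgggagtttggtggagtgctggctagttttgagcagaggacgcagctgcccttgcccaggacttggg
Top2a: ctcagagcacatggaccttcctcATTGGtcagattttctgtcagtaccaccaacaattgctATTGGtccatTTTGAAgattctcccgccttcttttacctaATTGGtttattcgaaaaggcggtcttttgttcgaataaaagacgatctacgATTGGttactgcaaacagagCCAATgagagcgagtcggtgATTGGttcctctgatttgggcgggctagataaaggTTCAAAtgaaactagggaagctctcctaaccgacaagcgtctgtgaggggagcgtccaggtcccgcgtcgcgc
Ccnb1: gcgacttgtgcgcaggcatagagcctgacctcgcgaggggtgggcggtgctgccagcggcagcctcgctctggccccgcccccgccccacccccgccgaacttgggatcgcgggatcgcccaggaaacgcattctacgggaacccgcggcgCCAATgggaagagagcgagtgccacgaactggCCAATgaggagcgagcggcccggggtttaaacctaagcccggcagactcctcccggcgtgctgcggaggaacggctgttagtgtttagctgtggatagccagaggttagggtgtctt
The E2F motif of Cdt1 began 32 bases after the RefSeq start. The Cdc6 window belongs to a start 442 bases inside the RefSeq gene, beyond the end of the called region. Its motif began 138 bases before that start, which is 304 bases after the outermost start of the gene and inside the called region. Of the 28 windows searched for these genes, 4 belong to a start over 100 bases inside the gene (E2f1, Cdc6, Rfc1 and Pola1). In Top2a the CHR motifs began 179 and 23 bases before the start, among 6 CCAAT boxes. Ccnb1 held CCAAT boxes 99 and 67 bases before its start and neither of the other motifs, which says only that those letters are not in this window.

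Motifs were searched on either strand as TTTCCCGC, TTTGGCGC, TTTCGCGC or TTTGCCGC for E2F, TTTGAA for CHR and CCAAT for the CCAAT box. No base of a member's window belonged to more than 1 kind of motif, but E2F motifs overlapped each other in Mcm5 and Mcm6. An E2F motif stood in 6 of 13 windows of S-phase genes, 3 of 6 of G1 and S entry regulators and 1 of 9 of mitotic genes, beside 2.26% of all 32851 windows and 4.70% of the 10226 windows that touch a tested region within 1 kb of a TSS. The CHR letters were in 7 of 9 mitotic windows, 1 of 13 S-phase windows and 1 of 6 entry windows (17.9% of all windows, 10.8% of those touching tested regions). A CCAAT box was in 9 of 9 mitotic, 10 of 13 S-phase and 3 of 6 entry windows (37.4% and 38.9%). Of the 6 S-phase promoters with an E2F motif 2 were called, Cdt1 and Cdc6, both higher. Of all regions within 1 kb 32.7% were called either way and 14% higher. The promoters of Mcm3, Mcm5, Mcm6 and Pola1 were not called. Of the 7 mitotic promoters with CHR letters only Top2a was called, and those of Ccnb2, Cdk1, Plk1, Bub1b, Cdc20 and Mki67 were not. Among the entry regulators the E2f3 window held both an E2F and a CHR motif and its region was called lower, and Cdk2 and Cdc25a, with an E2F motif, were not called.

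Cell cycle genes changed little and in both directions. Of the 58 regions, all of which passed the filter on low signal, 8 were called higher and 7 lower with the Actg1 guide (15 in all, 25.9%), beside 41.3% of all regions in the table (20.6% higher, 20.7% lower) and 33.7% of all regions with a gene name. Within 1 kb of the TSS, 5 of 41 regions rose and 5 fell (24.4%), beside 32.7% of all such regions, of which 14% rose and 18.7% fell. Beyond 1 kb 3 of 17 rose and 2 fell, beside 38.8% of the named regions at that distance. After cyclic loess scaling 7 of the 58 rose and 4 fell. No region changed by 2-fold: the fold changes ran from -0.60 to 0.69, with a median of -0.06. The median size of a change within 1 kb was 0.12 for these genes and 0.15 for all regions there. Their regions were stronger, with a median signal of 318 against 245. In classes 3, 4 and 5 of 5 by promoter signal, the strongest being 5, the median size over all promoter regions was 0.129, 0.126 and 0.115. The libraries of the groups did not overlap in 27 of the 58 regions, 11 higher and 16 lower (46.6%), beside 50.8% of all regions and 44.5% of those with a gene name. Within 1 kb they were apart in 6 higher and 14 lower of 41, beside 44% of all such regions, and beyond 1 kb in 5 higher and 2 lower of 17, beside 48.1%. Accessibility in bulk cells is an average, so a change in the share of cells in a phase and a change within each cell cannot be told apart.

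The calls were spread over weak and strong promoters. In 5 classes of promoter signal, from the lowest to the highest, 1 of 4, 1 of 8, 3 of 8, 1 of 9 and 4 of 12 regions of these genes were called, beside 28.9%, 28.8%, 28.7%, 33.9% and 43.1% of all promoter regions. Leaving out GFP guide replicate 3 left the GFP guide with 1 sample, the mean of replicates 1 and 2, which is assumed to vary like the Actg1 guide samples. In that fit 4 of the 58 were called, the rises of Cdt1, of the Cdk4 region 844 bp from the TSS and of the Aurkb region 4670 bp from the TSS and the fall of Ccnd2, and over all regions 12793 were called in place of 25323. All 11 regions that lost their call kept their direction, and in 10 the log2 fold change stayed within 1.5 times its value, Cdk6 being the exception. The change became larger in only 1 of the 11, the Wee1 region, and smaller in the rest. Each value given without that library comes from this fit. How far a lost call came from the smaller change or from the loss of a sample was not tested.

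**Figure D1:**
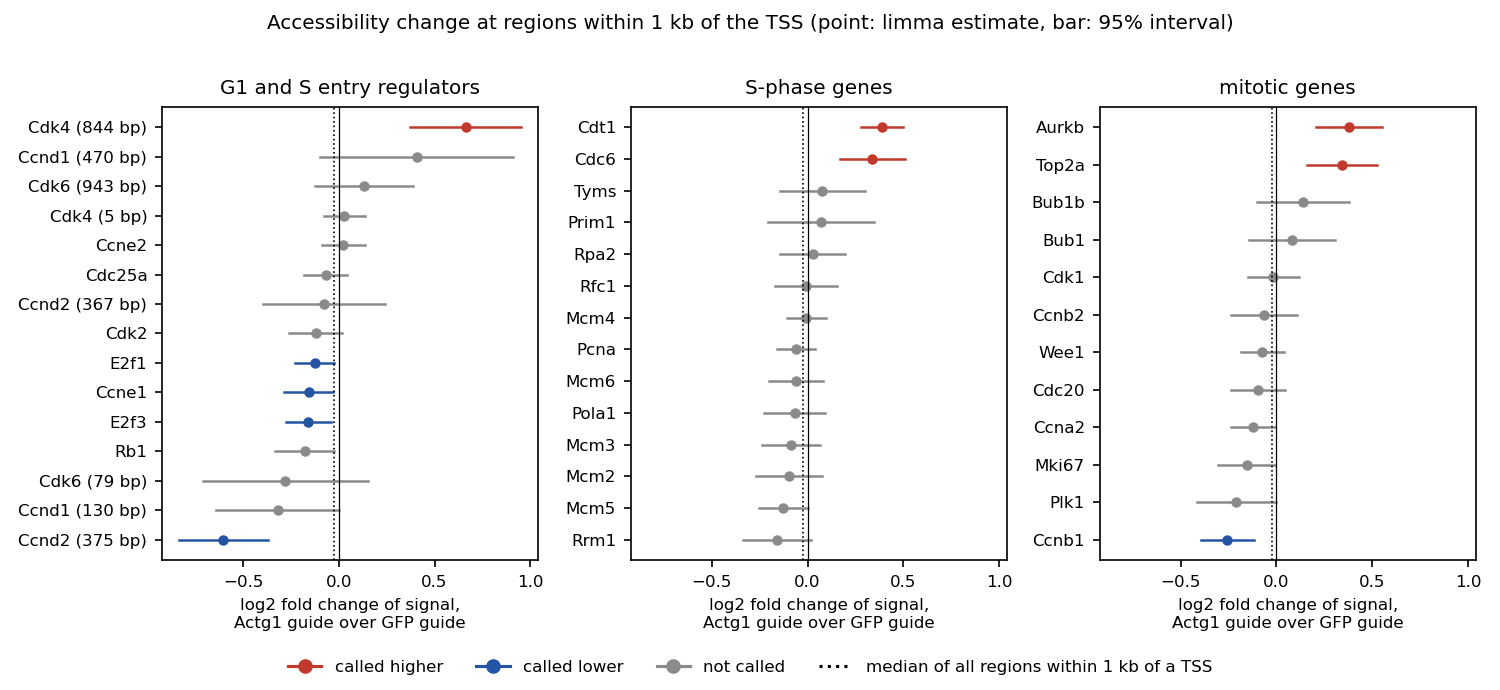
Change in accessibility at the 41 regions within 1 kb of the TSS, by role group. Points are log2 fold changes (Actg1 guide over GFP guide), bars are 95% intervals from limma, colours mark the call and the dotted line is the median of all regions within 1 kb. Most points sit near the dotted line. Of the called points, Cdt1, Cdc6, Aurkb, Top2a and the Cdk4 region 844 bp from the TSS lie to the right. Ccnd2 and Ccnb1 are the called points furthest to the left. Of the points not called, the Ccnd1 region at 470 bp lies as far right as Cdt1, and Ccnd1 at 130 bp and Cdk6 at 79 bp lie left of Ccnb1.

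The regulators of G1 and of entry into S phase were the group with most falls. Among their 15 regions within 1 kb, 1 rose and 4 fell (33.3%), with a median of -0.12. Of all regions within 1 kb 32.7% were called, 14% higher and 18.7% lower, with a median of -0.02. The split rests on the scaling: 1 rose and 2 fell after rescaling to equal totals or to equal promoter signal, and 1 rose and 1 fell after cyclic loess. Ccnd2, which encodes the cyclin D2 partner of Cdk4 and Cdk6, fell most. Its region 375 bp upstream of the TSS (chr6:127152394-127152742) had signals of 174, 183 and 165 in GFP guide replicates 1, 2 and 3 and of 124, 103 and 112 in Actg1 guide replicates 1, 2 and 3. Every Actg1 guide library lay below every GFP guide library, and the mean went from 172 ± 9.55 (SD, n = 2) to 113 ± 10.5 (SD, n = 3). The log2 fold change was -0.60 (SE 0.115, adjusted p = 3.95e-05), and it stayed called without any 1 library. The other 5 Ccnd2 regions, 367 to 4328 bp from the TSS, were not called, with fold changes of -0.08 to 0.36.

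Cdk4, the kinase that cyclin D activates, had 2 regions, of which 1 was called; the difference between them was not tested. The main promoter region, 5 bp from the TSS, had 727, 728 and 700 with the GFP guide and 734, 723 and 728 with the Actg1 guide, a fold change of 0.03 (95% interval -0.08 to 0.13). The weaker region 844 bp away (chr10:127062607-127062773), outside the RefSeq gene, had 64, 62 and 56 against 100, 89 and 95. There the groups were far apart and the fold change was 0.66 (SE 0.144, adjusted p = 0.00025), called without any 1 library as well.

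Cdk6, the related kinase, had 4 regions, of which 1 was called. The table placed a region 2627 bp from the TSS (chr5:3343600-3344624), in which the RefSeq promoter window of Cdk6 and that of the neighbouring gene Gm36470 lie. It had 244, 248 and 201 with the GFP guide and 309, 277 and 260 with the Actg1 guide, so the groups did not overlap, with a fold change of 0.34 (SE 0.091, adjusted p = 0.00243). GFP guide replicate 3 was the lowest of the 6, and without it the fold change was 0.19 (adjusted p = 0.264). Leaving out Actg1 guide replicate 1 also ended the call (adjusted p = 0.0587). The regions 79, 943 and 4238 bp from the TSS were not called, at -0.28, 0.13 and 0.17.

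E2f1 and E2f3, which encode factors that drive replication genes, were called lower. E2f1 had its region at the TSS (1 bp away), the strongest of the group, at 815, 801 and 838 against 765, 721 and 776. The groups did not overlap, yet the change was small, -0.13 (SE 0.052, adjusted p = 0.045). E2f3 had a region 1452 bp from the TSS (chr13:29984201-29985021), which holds a second RefSeq promoter window of the gene, at 331, 340 and 364 against 254, 253 and 303. It fell by 0.38 on the log2 scale (SE 0.083, adjusted p = 0.000293). The E2f3 region 275 bp from the TSS had 721, 729 and 764 against 730, 622 and 651, with Actg1 guide replicate 1 inside the control range, and a fold change of -0.16 (adjusted p = 0.0243). When GFP guide replicate 3 was left out, the adjusted p was 0.306 for E2f1, 0.0884 for E2f3 at 1452 bp and 0.354 for E2f3 at 275 bp. The E2f1 call also ended when GFP guide replicate 1 (0.0695) or replicate 1 (0.069) or 2 (0.144) of the Actg1 guide was left out, and that of E2f3 at 275 bp without Actg1 guide replicate 2 (0.177) or 3 (0.13). Scaling to equal totals (0.0926), to equal promoter signal (0.104) or by cyclic loess (0.173) ended the E2f1 call, and cyclic loess that of E2f3 at 275 bp (0.0794).

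Ccne1, which encodes cyclin E1, had 487, 500 and 517 at its promoter region with the GFP guide and 467, 429 and 463 with the Actg1 guide. The groups lay just apart, with a fold change of -0.16 (SE 0.064, adjusted p = 0.0452). The call ended without any 1 library other than GFP guide replicate 1, at adjusted p-values of 0.0537 to 0.311, and under all 3 other scalings, at 0.0819 to 0.118. The promoter of Ccne2, the other cyclin E gene, was at 0.02 (95% interval -0.09 to 0.13). Cdk2, the kinase of cyclin E, was at -0.12 and its activating phosphatase Cdc25a at -0.07, and neither was called. Rb1, the retinoblastoma gene, was at -0.18 with an adjusted p of 0.0587. Of the 5 Ccnd1 regions, of cyclin D1, none was called: that 130 bp from the TSS was at -0.32 (adjusted p = 0.105) and the other 4 at 0.11 to 0.41.

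**Figure D2:**
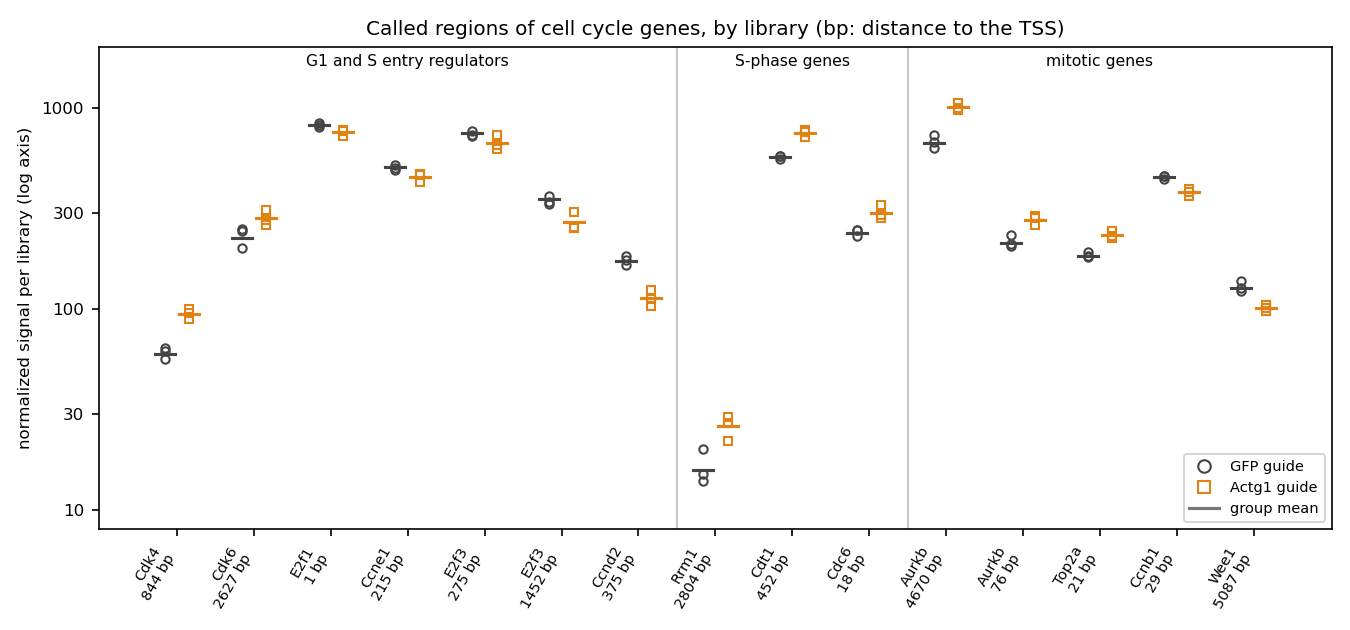
Normalized signal of the 15 called regions in each library, on a log axis. Circles are the 3 GFP guide libraries, squares the 3 Actg1 guide libraries and lines the group means, with GFP guide replicates 1 and 2 averaged as 1 sample. The groups overlap only at the E2f3 region 275 bp from the TSS.

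Among the S-phase genes, 2 of 14 promoter regions rose, beside 14% of all regions within 1 kb, and none fell, beside 18.7%. The rises were those of the licensing factors Cdt1 and Cdc6. Over the 14 regions the median was -0.03 and the range -0.16 to 0.39. Cdt1 helps load the Mcm helicase at origins. Its region (chr8:122566850-122568275, centre 452 bp from the TSS) had 577, 557 and 573 with the GFP guide and 774, 717 and 752 with the Actg1 guide. The lowest Actg1 guide library lay well above the highest GFP guide library, and the means were 570 ± 4.24 (SD, n = 2) and 748 ± 28.7 (SD, n = 3), a rise of 31.2%. The fold change was 0.39 (SE 0.055, adjusted p = 1.96e-07), called in each alternative that was run. Cdc6, the ATPase that acts with Cdt1 at origins, had a promoter region (chr11:98907510-98908128) of 245, 245 and 229 against 291, 329 and 281. All Actg1 guide libraries were higher, and the fold change was 0.34 (SE 0.084, adjusted p = 0.00114), or 0.29 without GFP guide replicate 3 (adjusted p = 0.0923).

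No call was made at the genes of the helicase that these factors load. The promoters of Mcm2, Mcm3, Mcm4, Mcm5 and Mcm6 had fold changes of -0.13 to -0.01 and none was called. Mcm4 had the highest signal of all S-phase promoters, 961, 951 and 1004 against 938, 934 and 1057, with overlapping groups and a fold change of -0.01 (95% interval -0.11 to 0.09). Its region also holds the start of Prkdc. Mcm5 came nearest to a call, at -0.13 (adjusted p = 0.102).

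Promoters of fork and nucleotide genes were not called either. Pcna, the sliding clamp, had 887, 867 and 905 against 855, 830 and 877, at -0.06 (95% interval -0.16 to 0.04). Rfc1 of the clamp loader was at -0.01 (-0.17 to 0.16), Rpa2 of the single-strand binding protein at 0.03 (-0.14 to 0.20), the polymerase gene Pola1 at -0.07 (-0.23 to 0.09) and the primase gene Prim1 at 0.07 (-0.21 to 0.35). These intervals still allow changes of up to about the size called elsewhere. Tyms, the thymidylate synthase gene, was at 0.08 (-0.14 to 0.30) and Rrm1, of ribonucleotide reductase, at -0.16 (-0.34 to 0.02), neither called. At both promoters the libraries of the groups did not overlap, as in 44% of all regions within 1 kb. A weak region inside Rrm1, 2804 bp from the TSS (chr7:102444439-102444558), had 20, 15 and 14 against 29, 27 and 22. The groups were apart and the fold change of 0.69 (SE 0.276, adjusted p = 0.0414) rested on few reads. The call ended when GFP guide replicate 2 (adjusted p = 0.0887) or 3 (0.258) or Actg1 guide replicate 1 (0.128) or 2 (0.0855) was left out.

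Of the mitotic genes 2 of 12 promoter regions rose, Top2a and Aurkb, and 1 fell, Ccnb1. That is 25%, beside 32.7% of all regions within 1 kb. The 12 had a median of -0.07 and a range of -0.26 to 0.38. Top2a encodes the topoisomerase that untangles chromosomes. Its promoter region (chr11:99023931-99024489) had 182, 191 and 180 against 226, 243 and 229. The groups were apart, with a fold change of 0.34 (SE 0.091, adjusted p = 0.00218), or 0.32 without GFP guide replicate 3 (adjusted p = 0.0632). Aurkb, the kinase of the chromosomal passenger complex, had a promoter region (chr11:69045415-69046031) of 233, 209 and 205 against 290, 283 and 260. It was higher in each Actg1 guide library, by 0.38 (SE 0.086, adjusted p = 0.000375), and by 0.33 without GFP guide replicate 3 (adjusted p = 0.052).

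Ccnb1 encodes cyclin B1, the partner of Cdk1 at entry into mitosis. Its promoter region (chr13:100786241-100786956) had 441, 458 and 457 with the GFP guide and 362, 395 and 382 with the Actg1 guide. It was lower in every Actg1 guide library, by 16.2% of the mean, with a fold change of -0.26 (SE 0.068, adjusted p = 0.00225), or -0.24 without GFP guide replicate 3 (adjusted p = 0.0704). Ccnb2, the other cyclin B gene, was at -0.06 (95% interval -0.24 to 0.11) and Cdk1 itself at -0.02 (-0.15 to 0.12), and neither was called. Wee1, the kinase that restrains Cdk1, was at -0.07 at its promoter. A region 5087 bp from its TSS (chr7:110116799-110117119) had 127, 137 and 122 against 104, 97 and 101, apart and at -0.33 (SE 0.122, adjusted p = 0.0264), but at adjusted p-values of 0.0878 without GFP guide replicate 3 and 0.0576 without Actg1 guide replicate 2.

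The remaining mitotic promoters were not called. Ccna2, of cyclin A2, was at -0.12 (adjusted p = 0.081), the proliferation marker Mki67 at -0.15 (0.0907), and the mitotic kinase Plk1 at -0.21 (0.0954). The checkpoint genes Bub1 and Bub1b were at 0.08 and 0.14 and the anaphase activator Cdc20 at -0.10. With the 6 libraries entered separately Ccna2 and Plk1 were called lower, as was the Pola1 region 2929 bp from the TSS.

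No difference was detectable between the changes of S-phase and mitotic genes. The mean log2 signal of the S-phase promoters exceeded that of the mitotic promoters by 0.117, 0.112 and 0.162 in GFP guide replicates 1, 2 and 3 and by 0.183, 0.159 and 0.131 in Actg1 guide replicates 1, 2 and 3. The groups overlapped, and the difference between them, 0.02, was smaller than the SD between samples of 0.029. The summed signal of the S-phase promoters was 5481 to 5559 with the GFP guide and 5584 to 5653 with the Actg1 guide. That of the mitotic promoters was 4204 to 4308 against 4023 to 4149, and that of the entry regulators 5356 to 5416 against 4978 to 5201. These sums did not overlap between the guides, with the S-phase sum higher and the others lower with the Actg1 guide. A sum weighs strong promoters most, and the rise of the Cdt1 region alone was larger than that of the S-phase sum. The mean log2 signals, in which each region counts the same, overlapped for S-phase and mitotic genes. For the entry regulators they did not, at 7.726 to 7.755 with the GFP guide and 7.666 to 7.721 with the Actg1 guide.

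Of the 5 genes without a row of their own, 4 have a promoter in a region named for a neighbour. The RefSeq promoter of Orc1, of the origin recognition complex, lies in a region that the table gave to Prpf38a, with 374, 385 and 361 against 419, 420 and 381 and a fold change of 0.13 (adjusted p = 0.125). That of Mcm7 lies in a region named Ap4m1 (0.06, adjusted p = 0.38), that of Rpa1 in one named Smyd4 (0.08, adjusted p = 0.369) and that of the mitotic kinase gene Aurka in one named Cstf1 (-0.08, adjusted p = 0.409). None of the 4 was called, and in a shared promoter the accessibility of either gene cannot be told apart. No region overlapped the RefSeq promoter window of Rrm2, so no value can be given for it.

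On chromosomes 11 and 13 the calls had the direction of the chromosome's median. All 4 regions of these genes on chromosome 11 (Cdc6, Top2a and both of Aurkb) rose, with a median of 0.36, and on the other chromosomes 4 of 54 rose and 7 fell, with a median of -0.07. Over all 935 tested regions within 1 kb of a TSS on chromosome 11 the median was 0.09, with 24.9% called higher and 7.91% lower. On chromosome 13 all 3 regions of these genes (Ccnb1 and both of E2f3) fell, where the median of the 500 regions was -0.08 and 25.6% were called lower. The other 4 rises (Cdt1, Cdk4, Cdk6 and Rrm1) lay on chromosomes 8, 10, 5 and 7, whose medians were slightly below 0 (-0.013, -0.019, -0.0015 and -0.00077), so there the direction was not that of the chromosome. After each region was centred on the median of its chromosome 14 of the 15 calls remained, and only E2f3 at 275 bp was lost (-0.08, adjusted p = 0.268). Centred in this way Cdc6 was at 0.22, Top2a at 0.23 and the Aurkb promoter at 0.26. What moved the chromosomes' medians was not tested.

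**Figure D3:**
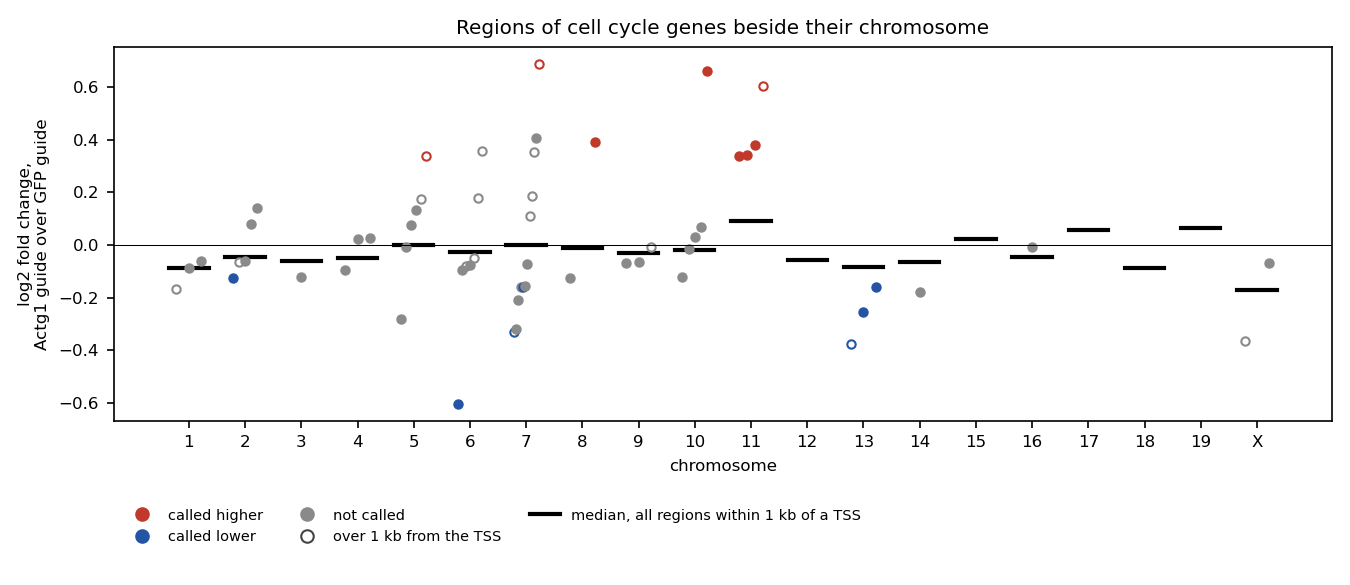
Log2 fold change of the 58 regions by chromosome. Filled circles lie within 1 kb of the TSS, open circles beyond it, colours mark the call and bars show the median of all tested regions within 1 kb of a TSS on that chromosome. The 4 regions on chromosome 11 and the 3 on chromosome 13 lie away from 0 on the same side as the bar of their chromosome, and further from 0 than it.

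Larger changes lay beside these genes than at their promoters, as over all regions. The median size of a change was 0.38 over all regions without a gene name and 0.15 over all regions within 1 kb. A change of at least 2-fold was seen in 2 of 29 tested regions beside these genes, and in 6972 of 46374 without a gene name. Of all regions without a gene name 43.7% were called, 22% higher and 21.7% lower. Within the RefSeq bounds of the genes and 10 kb on each side, 33 regions without a gene name were found at 19 genes. Of the 29 tested 10 were called higher and 3 lower (44.8%). Without GFP guide replicate 3 the counts were 5 higher and 2 lower. Deep inside Cdk6 lay 6 such regions, 153 to 175 kb from the TSS of a gene of 190 kb, and 5 of them rose. The table gave 3 of the 6 the identifier of another gene with no symbol. The strongest, at chr5:3494271-3494981, had 145, 163 and 139 against 199, 187 and 213, with a fold change of 0.44 (adjusted p = 0.000402, or 0.0564 without GFP guide replicate 3). The next, at chr5:3501577-3502035, had 78, 103 and 107 against 144, 177 and 158, apart and at 0.69 (adjusted p = 7.83e-06). The largest fold change was at chr5:3509576-3509839, a weak region of 8, 18 and 8 against 27, 20 and 30, at 1.23 (adjusted p = 0.00128, or 0.0896 without GFP guide replicate 3). The others rose by 0.45, which was lost without Actg1 guide replicate 1 (adjusted p = 0.0687), and by 0.56, which was lost without GFP guide replicate 3 (0.072), and the farthest was at -0.52 and not called.

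Other changes of size lay inside or next to single genes. A weak region inside Ccne2 (chr4:11198884-11199127) had 16, 22 and 18 against 41, 45 and 43, with a mean 2.32-fold higher and groups apart (1.17, adjusted p = 4.30e-05), while the Ccne2 promoter was at 0.02. Inside Bub1b, chr2:118619792-118620305 had 42, 46 and 59 against 69, 92 and 86 (0.67, adjusted p = 0.000913). A region 0.942 kb from the end of Cdc25a (chr9:109894837-109895009) fell from 47, 38 and 23 to 20, 18 and 15, at -0.80 (adjusted p = 0.0194). GFP guide replicate 3 stood nearest to the Actg1 guide there, and the call was lost without Actg1 guide replicate 2 (adjusted p = 0.0533) or 3 (0.0818). A region 8.77 kb from Cdt1 (chr8:122559037-122559249) had 51, 44 and 52 against 37, 37 and 31, at -0.50 (adjusted p = 0.0404), and lost its call when GFP guide replicate 1 (0.0926) or 3 (0.241), or replicate 1 (0.0548) or 3 (0.0953) of the Actg1 guide, was left out. A region near Rpa1 (chr11:75355409-75355802), inside Smyd4, fell at 151, 165 and 141 against 107, 101 and 112 (-0.48, adjusted p = 0.000954).

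Upstream of Aurkb the regions that rose hold transfer RNA genes. The region that the table gave to Aurkb at 4670 bp (chr11:69040015-69041938) had 673, 729 and 626 against 998, 1056 and 972, the highest signal of all regions of the mitotic genes. The groups were far apart, and the means were 664 ± 53 (SD, n = 2) and 1009 ± 43 (SD, n = 3), a rise of 52.0%, at a fold change of 0.60 (SE 0.052, adjusted p = 1.93e-12). In RefSeq this region lies outside Aurkb and holds 4 tRNA genes, n-TPcgg3, n-TDgtc9, n-TGtcc6 and n-TWcca7. The next region upstream, 8.19 kb from the TSS with no gene name (chr11:69036929-69037983), had 224, 255 and 214 against 442, 446 and 389 and a fold change of 0.91 (adjusted p = 2.03e-12), and it holds 3 tRNA genes, n-TIaat5, n-TSaga4 and n-TTagt8. Both kept their calls without any 1 library. No other region of the 42 genes, named for them or within 10 kb, held a tRNA gene. The tRNA annotation was looked up after these values were seen.

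**Figure D4:**
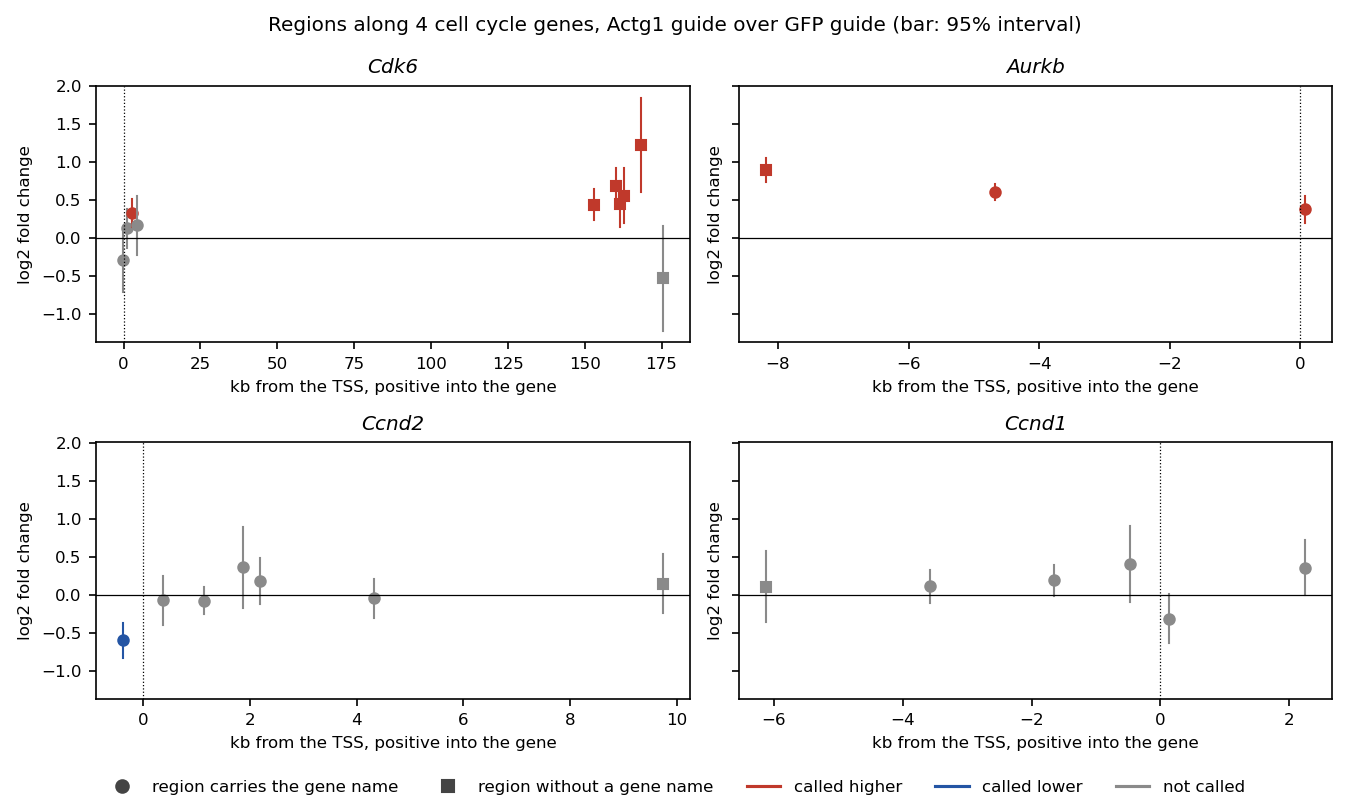
Log2 fold change of the tested regions along Cdk6, Aurkb, Ccnd2 and Ccnd1 against the distance of the region's centre from the TSS in kb, positive into the gene. Circles carry the gene's name, squares carry none, bars are 95% intervals and colours mark the call. Rises at Cdk6 cluster between 153 and 168 kb, those at Aurkb are 0.38, 0.60 and 0.91 from the promoter outwards, the last at 8.19 kb upstream, and at Ccnd2 the only call is the fall at 0.375 kb upstream.

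Other genes of the same pathways showed a like mixture. Of 114 further cell cycle genes 97 had a region and 93 one within 1 kb, and of their 98 regions within 1 kb 13 rose and 19 fell (32.7%, beside 32.7% of all regions within 1 kb), with a median of -0.02. The counts were 3 and 4 when GFP guide replicate 3 was left out. Among 29 regions of other replication genes 5 rose and 3 fell (27.6%). The largest called rises were at Pola2 of the primase complex (0.45), Timeless (0.28) and the polymerase gene Pold3 (0.24). The called falls were at the clamp loader genes Rfc5 (-0.23) and Rfc4 (-0.21) and at Gins2 (-0.13). After cyclic loess 8 rose and 2 fell. None of these 29 regions was called without GFP guide replicate 3, where Pola2 was at 0.28, Timeless at 0.22, Pold3 at 0.27, Rfc5 at -0.21, Rfc4 at -0.17 and Gins2 at -0.12. The 29 calls of pathway regions, at any distance, lost in that fit all kept their direction. Of these 26 stayed within 1.5 times their log2 fold change, and only 4 changes became larger. The calls of Pold3 and Gins2 also ended without Actg1 guide replicate 2 (adjusted p = 0.0661 and 0.0619) and that of Pold3 without Actg1 guide replicate 3 (0.058). Among 39 regions of other mitotic genes 4 rose and 9 fell (33.3%), or 5 and 6 after rescaling to equal totals. The largest called falls were at the kinetochore gene Cenpf (-0.39), the phosphatase gene Cdc25b (-0.37) and the checkpoint kinase gene Ttk (-0.30). The largest called rises were at Anln (0.27), Spc24 (0.26) and Knl1 (0.26). Fold changes of the 39 ran from -0.54 to 0.52, and the regions at these ends were not called. Without GFP guide replicate 3 Spc24 was at 0.26 (adjusted p = 0.0578) and Knl1 at 0.21 (0.115), while the calls of Cenpf, Cdc25b, Ttk and Anln held without any 1 library.

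Among 14 regions of other E2F, pocket and DREAM proteins, which repress or activate E2F and CHR promoters, 4 rose and 4 fell (57.1%). Of all regions within 1 kb 32.7% were called, 14% higher and 18.7% lower. E2f2 rose most, with 111, 107 and 107 against 161, 145 and 147, apart and at 0.48 (adjusted p = 0.00065). Lin54 (0.40) and E2f6 (0.37) were also called higher and E2f5 (-0.35), Rbl2 (-0.24) and E2f7 (-0.24) lower. When GFP guide replicate 3 was left out, only 1 rise and 1 fall of the 14 remained, those of E2f2 and E2f7. The calls of Lin54 and E2f6 also ended without GFP guide replicate 2 (adjusted p = 0.0856 and 0.087) and without Actg1 guide replicate 3 (0.0681 and 0.0829), that of Lin54 without Actg1 guide replicate 1 (0.0564), that of E2f6 without Actg1 guide replicate 2 (0.0861) and that of Rbl2 without Actg1 guide replicate 1 (0.0807). Other cyclin, kinase partner and checkpoint kinase genes had 0 rises and 3 falls in 11 regions, Cdk7 (-0.30), Chek1 (-0.28) and Cks2 (-0.17), and no call without GFP guide replicate 3. Those 3 falls were 27.3% of the 11 regions, beside 32.7% called of all regions within 1 kb. The CDK inhibitor genes had no call in 5 promoter regions, none of which had an unadjusted p under 0.05. Further from the TSS the inhibitor gene Cdkn1a had a region 3970 bp away with 856, 902 and 855 against 1047, 1025 and 1059, apart and at 0.27 (adjusted p = 8.13e-06). A second, 2832 bp away, had 300, 331 and 311 against 424, 369 and 377, apart and at 0.31 (adjusted p = 0.000679), or 0.30 without GFP guide replicate 3 (0.0554).

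The largest changes among the pathway genes were beyond 1 kb. Over all regions with a gene name, too, the median size of a change was larger there (0.28) than within 1 kb (0.14). Foxm1, the transcription factor of the mitotic programme, had a region 3618 bp from its TSS with 68, 60 and 72 against 182, 195 and 142. The mean rose from 68 to 173, with a fold change of 1.32 (SE 0.128, adjusted p = 3.38e-11). Rfc2 had one 4299 bp from its TSS that fell from 30, 30 and 34 to 10, 14 and 11 (-1.39, adjusted p = 0.000251), and E2f7 one 4693 bp away that fell from 96, 98 and 99 to 47, 58 and 55 (-0.87, adjusted p = 1.48e-05). In each of these 3 the groups were apart and the call held without any 1 library, as did a fall of 0.57 on the log2 scale in the Lin54 region 2052 bp from the TSS. Smaller changes were called in Foxm1 at 1899 bp (0.35), Prim2 at 3620 bp (-0.34) and Ccnd3 at 3116 bp (-0.31). These calls ended when GFP guide replicate 3 was left out, with Foxm1 at 0.39, Prim2 at -0.29 and Ccnd3 at -0.39, that of Foxm1 also without Actg1 guide replicate 3 (adjusted p = 0.0695) and that of Ccnd3 without GFP guide replicate 2 (0.0939) and without Actg1 guide replicate 1 (0.13).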

How the data were processed

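The genes and lists were chosen with earlier results of these data known. Paired-end ATAC-seq reads of 6 libraries had been aligned to mm10, per the submitters' processing notes, which name Trimmomatic 0.39, STAR 2.7.10a, Picard 3.0.0, featureCounts and DESeq2 1.36.0 without their roles. Peak calling, merging, any Tn5 offset and the normalization formula: not given in the sources used here. Values are the authors' deposited normalized signal per region, rounded to whole numbers, so no count test of the guides was run. Only the chi-square between replicates used reads estimated from the signal. The authors' table also gives the fraction of a region that lies in its gene. The total signal was 7673745 to 7831438 per library.

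The 61327 regions that reached a signal of 10 in 3 or more libraries were tested on log2(signal + 1) with limma 3.58.1 (R 4.3.3) and a mean-variance trend, adjusted by Benjamini-Hochberg over all and called under 0.05. This scale understates changes of weak regions. GFP guide replicates 1 and 2 entered as their mean. The genes named were the 42 chosen ones, and from each further list, and from the regions without a gene name, the 3 largest called rises and falls, taken for the lists within 1 kb and at any distance. Replicate numbers were not used to pair the samples in the main fit. Same-numbered deviations correlated weakly, at 0.025, 0.014 and 0.016, and differently numbered ones at -0.0165 to -0.0003. Other regions lacking a gene name were joined by RefSeq bounds (GRCm38.p6). The fit was also run on simulated reads, drawn independently and with the same spread setting for every region. That run cannot show how reliable the calls on the real samples are, and its outcome is not given here. Alternatives covered the pseudocount, filter, scaling, trend, separate libraries, replicate block, flank and each library left out. Centring by chromosome and the tRNA counts were added after seeing the data. Tables were handled in Python 3.11.15 (pandas 2.3.3, numpy 2.4.6) and drawn with matplotlib 3.10.9.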

Additional observations from a re-analysis of the deposited data

How the results depend on the processing

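Of the 15 called regions of the 42 genes, 4 were called in each alternative run (Cdt1, the Ccnd2 region 375 bp, the Cdk4 region 844 bp and the Aurkb region 4670 bp from the TSS), 11 lost their call in at least 1 and 0 reversed. Leaving out 1 library gave 4 to 15 calls, the lowest without GFP guide replicate 3 (3 higher, 1 lower), a fit with 1 GFP guide sample in which the 11 lost regions kept their direction. Without a mean-variance trend 8 were called (7 higher, 1 lower), and the pathway genes fell from 32 to 3 calls. Leaving out GFP guide replicate 3, all regions gave 12793 calls (7381 higher, 5412 lower) against 25323, the regions beside the genes 7 against 13 and the pathway genes 7 against 32. With 1 library left out the most calls were 24706, 13 and 31. With 50 kb on each side 60 of 132 regions beside the genes were called (32 higher, 28 lower). With 6 separate libraries 18 regions of the 42 genes were called, with 3 gained (Ccna2, Plk1 and Pola1) and 0 lost, and with the replicate number as a block on those libraries 19, so that the block added Ccnd1. The main fit did not pair the samples by number, although every sample correlated best, if weakly, with its own number. Without Wee1, Ccna2 and Mki67, whose assignment to the mitotic list is open to choice, the mitotic median was -0.0154 and the S-phase minus mitotic difference -0.0175. That difference was 0.0518 after centring by chromosome. The change at Mcm4, never called, turned positive at 0.0138 with equal totals, 0.0381 with cyclic loess, 0.0198 with equal promoter signal, 0.0044 with 6 separate libraries and with the replicate block, 0.0326 after centring, and with 1 library left out it ran from -0.0658 to 0.0279. The cause of these differences was not tested. The rounded signal leaves the depth of single regions unknown, and weak regions had the widest intervals.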

Other observations

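Regions that hold a tRNA gene, as at Aurkb, were more accessible with the Actg1 guide across the table. They were looked up after the values beside Aurkb were seen. The RefSeq table lists 430 tRNA genes, and 165 tested regions held at least 1. Of these 118 were called higher (71.5%) and 1 lower, with a median log2 fold change of 0.34. Of the 61162 tested regions without a tRNA gene 20.5% were called higher and 20.7% lower, with a median of -0.01. The share of the total signal that lay in tRNA regions was 0.604%, 0.605% and 0.579% in GFP guide replicates 1, 2 and 3 and 0.765%, 0.757% and 0.724% in Actg1 guide replicates 1, 2 and 3, with no overlap of the groups. Without the regions beside Aurkb 116 of 163 were higher and 1 lower. On chromosome 11, 21 of 22 were higher, and on the other chromosomes 97 of 143 were higher and 1 lower (median 0.32). Without GFP guide replicate 3 the count was 67 higher and 0 lower, and without a mean-variance trend 64 higher and 0 lower. Neighbouring tRNA genes can share a region and near-identical copies can share reads, so the regions are not independent, and what moved with the tRNA genes was not tested.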
